A study of Mus musculus with 18 samples.

Results

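The genes described here are 10 enzymes of glycolysis: pyruvate kinase M (Pkm), hexokinase 1 (Hk1), the phosphofructokinases Pfkm, Pfkl and Pfkp, aldolase A (Aldoa), glyceraldehyde-3-phosphate dehydrogenase (Gapdh), phosphoglycerate kinase 1 (Pgk1), and the enolases Eno1 and Eno2. They were chosen by name. All 10 were found among the 39017 gene identifiers counted, and they hold 310 of the 355320 exon bins. RNA bound to tagged ribosomes was purified (TRAP, translating ribosome affinity purification) from neurons of layer II of the mouse entorhinal cortex, 1 library per mouse, after injection of a vector meant to raise or silence the splicing regulator Ptbp1. The overexpression experiment has 5 PTBP1 OE mice, injected with a vector carrying Ptbp1 and mCherry, and 4 control OE mice, injected with a control vector carrying mCherry. The silencing experiment has 4 Ptbp1_shRNA mice, whose vector carried a short hairpin RNA against Ptbp1, and 5 Scrambled_shRNA mice, whose vector carried a scrambled hairpin, both with mCherry. The entorhinal cortices of both sides were pooled in each mouse, and 1 Ptbp1_shRNA mouse and 1 control OE mouse were left out by the authors for lack of mCherry reads. All 18 libraries are labelled as brain, and the labels name no age, strain, sex or ribosome-tagging transgene. The entorhinal cortex is the region named in the title and design of the series, but each library's tissue label says hippocampus.

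Glycolysis splits glucose into pyruvate and yields ATP. Neurons in the adult brain are known to make the constitutively active pyruvate kinase M1, whereas proliferating and embryonic cells make the regulated form M2. Both forms come from Pkm by mutually exclusive splicing of neighbouring exons, and PTBP1 is known from cultured cells to repress the M1 exon, so that the M2 exon is used in its place. Ptbp1 is normally low in neurons.

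Gene counts per library ran from 34339355 to 46544178 in silencing and from 18288627 to 39056655 in overexpression. The biological coefficient of variation was 90.1% in silencing and 22.3% in overexpression. Coverage along genes was less even in silencing. Exon bins averaging 50 counts or more over all 18 libraries were examined. Their share at 0 in a library was 1.24% to 8.30% in silencing, but 0.0213% to 0.0551% in overexpression. As the average spans both experiments, a bin with a low level in silencing can add to its share too. The least evenly covered libraries were replicate 2 of Ptbp1_shRNA and replicate 5 of Scrambled_shRNA. The targeted gene followed the labels in overexpression. Ptbp1 was at 118 to 158 CPM (counts scaled to library size) in PTBP1 OE and at 9.96 to 17.2 CPM in control OE, a log2 fold change of 3.36 (edgeR adjusted p = 5.48e-08). In silencing, Ptbp1 was at 0.101 to 13.1 CPM in the libraries labelled Ptbp1_shRNA and at 0.349 to 9.11 CPM in those labelled Scrambled_shRNA, and the groups overlapped, so the knockdown is not visible in these counts. Layer II markers were present in every group. Reln averaged 286 ± 95.6 CPM in PTBP1 OE, 314 ± 76.5 in control OE, 158 ± 74.8 in Ptbp1_shRNA and 189 ± 37.9 in Scrambled_shRNA (SD, n = 5, 4, 4 and 5).

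The exons that distinguish the Pkm forms are shown here because the clearest difference lies in them. Pkm lies on chromosome 9 (ENSMUSG00000032294, mm10, plus strand) and has 12 exons in the transcripts kept here, with the M1 exon just before the M2 exon. Its 12 deposited bins were taken in order as these exons. The M1 exon is at chr9:59675029-59675195 and the M2 exon at chr9:59675568-59675734, and 372 bases of intron lie between them. Both are internal coding exons of 167 bases. They are printed 5′ to 3′ on the plus strand from GENCODE release M 21, with capitals at the 64 positions where they differ and lower case at the 103 positions where they are identical.
Pkm M1 exon: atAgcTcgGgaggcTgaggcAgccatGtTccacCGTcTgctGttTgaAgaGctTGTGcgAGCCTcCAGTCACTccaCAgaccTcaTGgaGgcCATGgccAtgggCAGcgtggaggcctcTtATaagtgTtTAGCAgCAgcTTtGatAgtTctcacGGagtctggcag
Pkm M2 exon: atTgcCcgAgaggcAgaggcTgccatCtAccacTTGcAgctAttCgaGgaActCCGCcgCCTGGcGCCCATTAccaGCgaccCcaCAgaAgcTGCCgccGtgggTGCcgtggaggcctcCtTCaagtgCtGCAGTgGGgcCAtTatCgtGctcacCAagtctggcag
The exons are thus 61.7% identical, with a G+C content of 56.3% for M1 and 62.9% for M2, and counts in their bins can be set against each other with no correction for length.

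The M2 exon was used more in PTBP1 OE. It had 79, 68, 36, 41 and 36 counts in the 5 PTBP1 OE libraries, and 15, 8, 7 and 13 counts in the 4 control OE libraries. The M1 exon had 3116, 2671, 1893, 2589 and 2089 counts in PTBP1 OE, and 2366, 2750, 1677 and 2184 in control OE. As a share of M1 and M2 counts together, M2 made up 2.47%, 2.48%, 1.87%, 1.56% and 1.69% in PTBP1 OE, and 0.630%, 0.290%, 0.416% and 0.592% in control OE. Every PTBP1 OE library lay above every control OE library. The lowest PTBP1 OE share had a 95% Wilson interval of 1.15% to 2.11%, and the highest control OE share one of 0.382% to 1.04%. These intervals cover counting error only.

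The mean M2 share was 2.01% ± 0.436 in PTBP1 OE and 0.482% ± 0.158 in control OE (SD, n = 5 and 4), a difference of 1.53 percentage points or 4.18-fold (exact two-sided permutation p = 0.0159, the smallest that 126 splits allow, and 0.0476 after Benjamini-Hochberg adjustment over the 9 tests of shares). The M2 share in silencing was planned as a further test of this family, but it was 0 in every library and gave no p-value. The adjusted p of 0.0476, here and for the Pfkm and silencing Eno1 shares below, is close to the 0.05 threshold and rests on that smaller family. Had the silencing M2 share counted as a test, each of these adjusted p would lie above 0.05. The M1 exon still took most counts in PTBP1 OE. Over all libraries, M2 had 260 of 12618 counts in PTBP1 OE and 43 of 9020 in control OE. The M1 and M2 exons together had 1.08 ± 0.0362 times the counts per base of the flanking exons in PTBP1 OE and 1.10 ± 0.0160 times in control OE.

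A test of each exon bin against the other bins of its gene placed the same exon apart. The relative usage of the M2 bin in PTBP1 OE over control OE was 1.95 on the log2 scale (edgeR diffSpliceDGE, adjusted p = 0.000111 over 117580 bins). It was the 1 bin called among 227 tested member bins, where 0.034% of all bins were called at an adjusted p under 0.05. The M1 bin had a log2 relative usage of -0.11 (unadjusted p = 0.436). At an unadjusted p under 0.05, 2 member bins passed in overexpression, against 1.37% of all bins. The other was bin 030 of Aldoa, with a log2 relative usage of 0.92 (unadjusted p = 0.0431, adjusted p = 1.00), which is named for its place next after the M2 bin. Hk1, Pfkm, Pfkl, Pfkp, Gapdh, Pgk1, Eno1 and Eno2 had no called bin under PTBP1 OE.

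**Figure D1:**
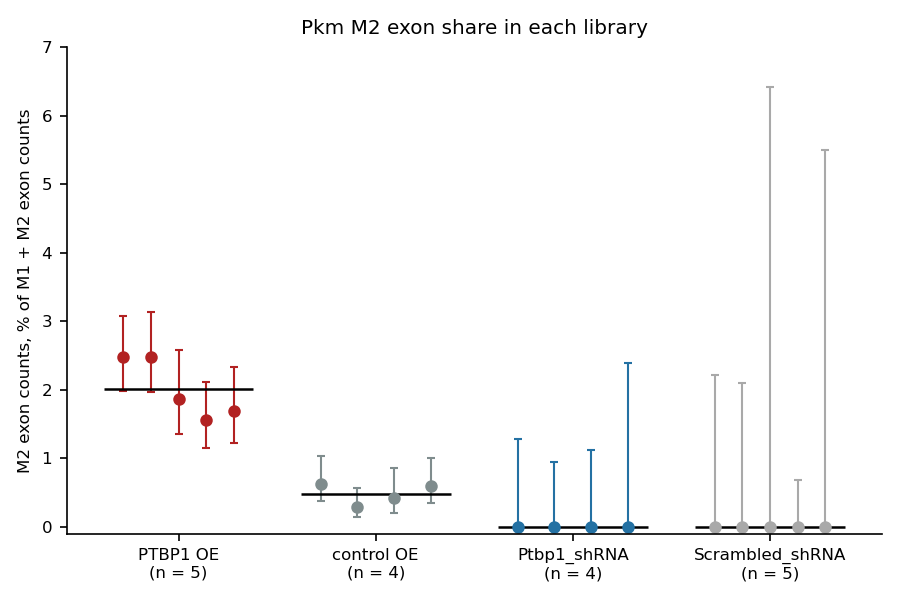
Each point is 1 library. The vertical axis is M2 exon counts as a percent of M1 and M2 exon counts together, error bars are 95% Wilson intervals for counting error, and black lines are group means. The PTBP1 OE libraries sit between 1.56% and 2.48%, above the control OE libraries at 0.290% to 0.630%, and all silencing libraries are at 0 with wide intervals.

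No M2 count was found in silencing, in any of the 9 libraries. M1 counts were 297, 403, 339 and 157 in Ptbp1_shRNA, and 170, 179, 56, 561 and 66 in Scrambled_shRNA. With 0 of 1196 counts in Ptbp1_shRNA and 0 of 1032 in Scrambled_shRNA, shares of up to 0.251% and 0.291% are allowed over each group, taking 3 counts as the limit. Per library the limit ran from 0.744% to 1.91% in Ptbp1_shRNA and from 0.535% to 5.36% in Scrambled_shRNA. These limits cover counting error only and do not allow for uneven coverage. With so few counts at these exons, a difference in M2 use was not detectable, and it was not tested, although the silencing libraries held more gene counts in all. The relative usage of the M1 bin was 0.04 on the log2 scale in Ptbp1_shRNA over Scrambled_shRNA (diffSpliceDGE, unadjusted p = 0.960).

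Counts in silencing were gathered at the 3′ end of Pkm. The last exon held 53.1% to 64.9% of Pkm bin counts in Ptbp1_shRNA and 50.3% to 58.0% in Scrambled_shRNA, but 33.0% to 38.9% in PTBP1 OE and 31.4% to 36.1% in control OE. M1 and M2 together had 0.884 ± 0.136 times the counts per base of the flanking exons in Ptbp1_shRNA and 0.752 ± 0.337 times in Scrambled_shRNA. Of 175 member bins tested in silencing, 0 were called, against 0.0012% of all 83164 bins tested. At an unadjusted p under 0.05, 0 member bins passed with diffSpliceDGE and 0 with limma, against 1.96% of all bins with diffSpliceDGE. A set of 169 member bins averaged 50 counts or more over all 18 libraries. Of these, 0 to 15 (median 4) were at 0 in a silencing library and 0 in each overexpression library.

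**Figure D2:**
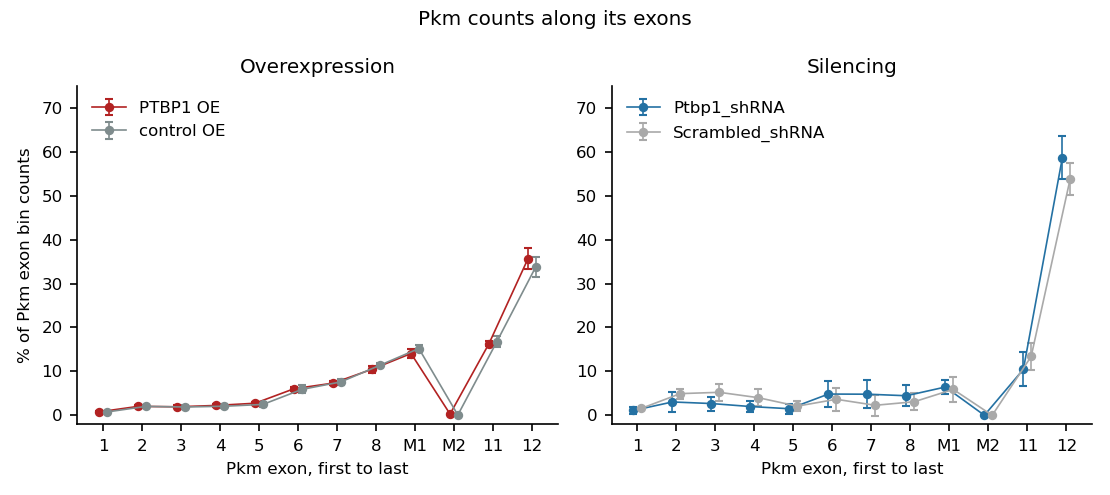
Share of Pkm exon bin counts (%, vertical axis) in each of the 12 exons from first to last (horizontal axis), as group means with SD, for overexpression (left) and silencing (right). In overexpression the M1 exon holds 14.1% in PTBP1 OE and 15.2% in control OE, and the M2 exon 0.286% and 0.0741%. In silencing the M2 exon is at 0 in both groups and the last exon holds 58.7% in Ptbp1_shRNA and 53.8% in Scrambled_shRNA.

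The total level of Pkm was not called in overexpression. Pkm was at 735, 843, 878, 878 and 776 CPM in PTBP1 OE, and at 795, 877, 853 and 789 CPM in control OE. The groups overlapped throughout, with a log2 fold change of -0.01 (95% interval -0.17 to 0.15, edgeR quasi-likelihood test, adjusted p = 0.994).

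Of the 10 enzymes, 0 were called in overexpression at an adjusted p under 0.05 with edgeR, where 0.0425% of the 16480 genes tested were called, and 0 with DESeq2 or limma. At an unadjusted p under 0.05, 1 passed with edgeR, 1 with DESeq2 and 0 with limma, against 4.78% of all genes with edgeR. Log2 fold changes ran from -0.09 for Pfkm to 0.18 for Pfkl, with a median of -0.01 over the 10 and of 0.00 over all genes tested. No 95% interval went below -0.31 or above 0.35. In bulk RNA of this kind, fewer tagged cells of a type and less RNA per cell cannot be told apart.

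In order along the pathway, Hk1 phosphorylates glucose in its first step (chromosome 10, 62268855 to 62379908, minus strand). It averaged 201 ± 16.3 CPM in PTBP1 OE and 198 ± 40.8 CPM in control OE (SD, n = 5 and 4), and the lowest control OE library, at 140 CPM, stood below the rest.

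Phosphofructokinase commits sugar to glycolysis, and its subunits Pfkm (muscle type, chromosome 15, 98092589 to 98132451), Pfkl (liver type, chromosome 10, 77986947 to 78010083) and Pfkp (platelet type, chromosome 13, 6579768 to 6648777) combine into tetramers. Pfkl was at 122, 129, 138, 126 and 124 CPM in PTBP1 OE, and at 107, 107, 121 and 116 CPM in control OE. All PTBP1 OE libraries lay above all control OE libraries, the lowest of them by less than 1 CPM, and Pfkl was the 1 member whose groups did not overlap in overexpression, where 1.81% of all genes had groups that did not overlap and 1.13% had PTBP1 OE higher. Its log2 fold change was 0.18 (95% interval 0.01 to 0.35), and it did not pass over all genes (edgeR, unadjusted p = 0.0374, adjusted p = 0.974). Pfkm averaged 156 ± 15.8 CPM in PTBP1 OE and 167 ± 18.6 CPM in control OE, and Pfkp 217 ± 22.1 and 218 ± 25.9 CPM. Both sets of libraries overlapped.

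Among the later enzymes, Aldoa, which cleaves fructose-1,6-bisphosphate (chromosome 7, 126795234 to 126800751), averaged 1793 ± 110 CPM in PTBP1 OE and 1814 ± 83.1 CPM in control OE. Gapdh, which reduces NAD+ while adding phosphate (chromosome 6, 125161715 to 125166467), averaged 3673 ± 258 CPM in PTBP1 OE and 3829 ± 428 CPM in control OE. Pgk1, which makes the first ATP of the pathway (chromosome X, 106187100 to 106203699), averaged 477 ± 44.2 CPM in PTBP1 OE and 498 ± 44.5 CPM in control OE. These enzymes had log2 fold changes of -0.02, -0.06 and -0.06 in that order, and their groups overlapped. Gapdh, Pgk1 and Pkm have near-identical pseudogene copies, and no source used here says how reads matching several places were counted, so their absolute levels are uncertain to that extent.

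Enolase makes phosphoenolpyruvate. Eno1 is the broadly expressed form (chromosome 4, 150236721 to 150248879) and Eno2 the form known as neuron-specific enolase (chromosome 6, 124760053 to 124769673). Eno1 averaged 940 ± 55.8 CPM in PTBP1 OE and 957 ± 46.3 CPM in control OE, and Eno2 712 ± 48.8 and 718 ± 56.0 CPM. Both sets overlapped, with log2 fold changes of -0.03 and -0.01. Reads of Eno1 may be shared with its near-identical copy Eno1b.

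**Figure D3:**
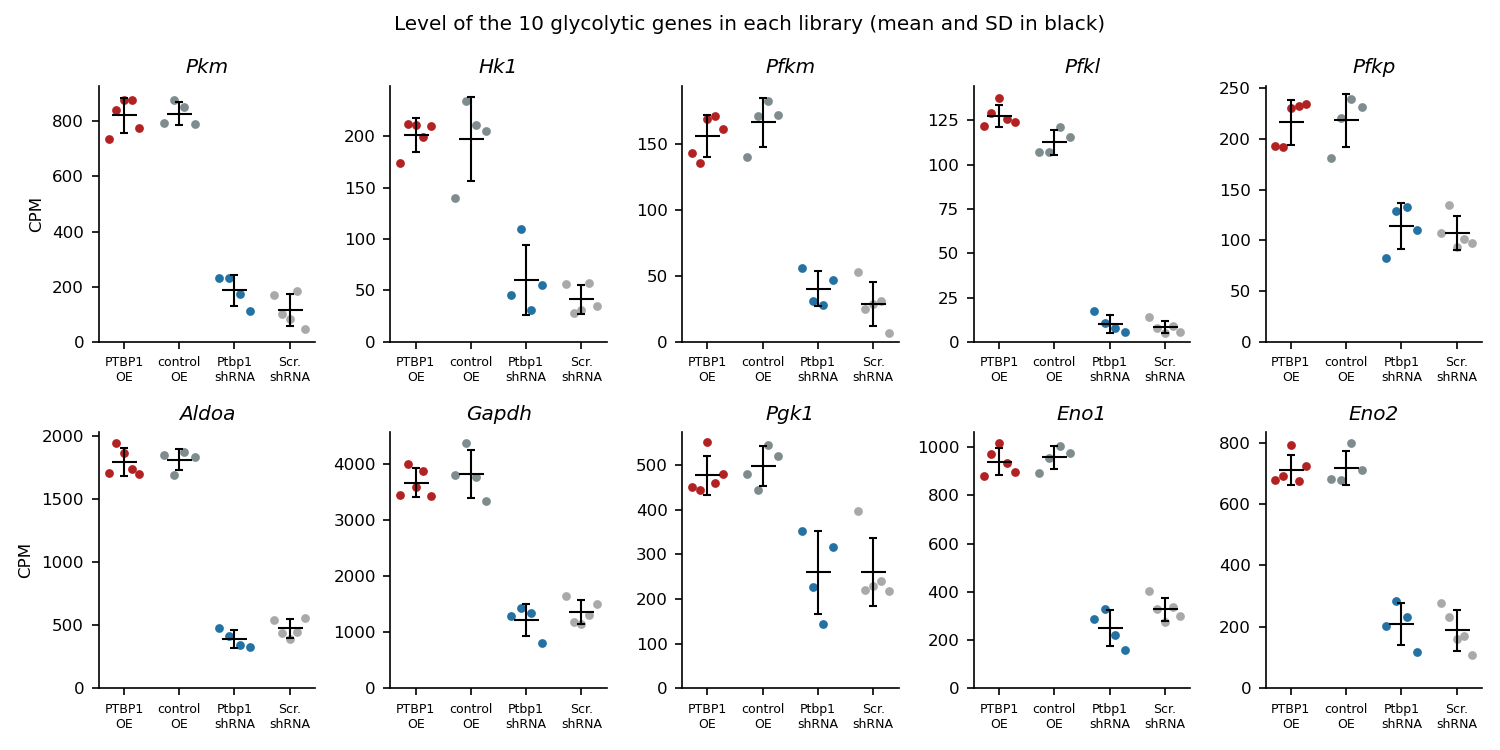
Level of each of the 10 genes in CPM, scaled within each experiment (linear vertical axes starting at 0), with 1 point per library and the mean and SD in black. PTBP1 OE and control OE overlap for all genes but Pfkl, at 122 to 138 against 107 to 121 CPM, and Ptbp1_shRNA and Scrambled_shRNA overlap for all 10.

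In silencing, 0 of the 10 enzymes were called with edgeR, and 0 with DESeq2 or limma, where edgeR called 0% of the 14656 genes tested. At an unadjusted p under 0.05, 0 members passed with each of these tools, against 11.2% of all genes with edgeR. Ptbp1_shRNA and Scrambled_shRNA overlapped for all 10 members, while they did not for 4.84% of all genes. Log2 fold changes ran from -0.39 for Eno1 to 0.68 for Pkm, with a median of 0.12 over the members and 0.03 over all genes, and their 95% intervals reached from -1.03 to 1.66. The interval of a single gene thus left room for changes several times larger than in overexpression.

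Pkm had the largest difference of the 10 in silencing. It was at 231, 231, 175 and 111 CPM in Ptbp1_shRNA, and at 168, 99.6, 84.4, 184 and 45.2 CPM in Scrambled_shRNA. The 2 highest Ptbp1_shRNA libraries stood above every Scrambled_shRNA library, and the other 2 fell inside their range. Its log2 fold change was 0.68 ± 0.38 (SE, 95% interval -0.14 to 1.51, edgeR adjusted p = 0.554).

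The other enzymes had differences of either sign. Hk1 averaged 60.4 ± 34.1 CPM in Ptbp1_shRNA and 41.5 ± 14.3 CPM in Scrambled_shRNA (SD, n = 4 and 5), with 1 Ptbp1_shRNA library at 109 CPM and the other three at 31.5 to 55.5. Pfkm averaged 40.4 ± 13.3 and 28.8 ± 16.6 CPM, Pfkl 10.2 ± 5.10 and 8.20 ± 3.48 CPM, and Pfkp 114 ± 22.9 and 107 ± 16.5 CPM, with Ptbp1_shRNA first in each pair. Log2 fold changes of these phosphofructokinases were 0.49, 0.31 and 0.09, and none passed. Aldoa averaged 392 ± 69.5 CPM in Ptbp1_shRNA and 475 ± 72.7 CPM in Scrambled_shRNA. Gapdh averaged 1220 ± 281 CPM in Ptbp1_shRNA and 1359 ± 211 CPM in Scrambled_shRNA, and Pgk1 259 ± 93.6 and 261 ± 76.5 CPM. Eno1 averaged 249 ± 73.7 CPM in Ptbp1_shRNA and 328 ± 47.8 CPM in Scrambled_shRNA, and Eno2 210 ± 68.9 and 190 ± 66.6 CPM.

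**Figure D4:**
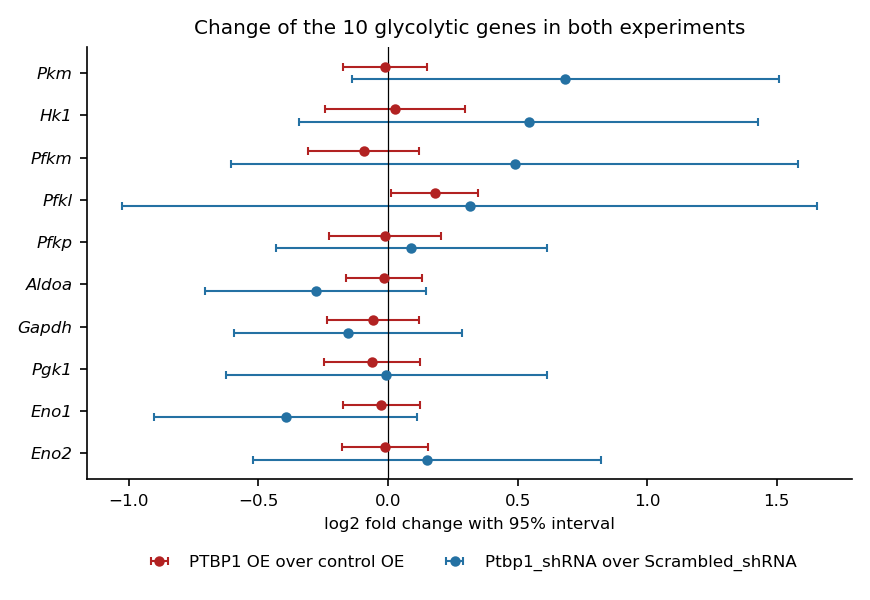
Log2 fold change with its 95% interval (horizontal axis) for each of the 10 genes, with PTBP1 OE over control OE in red above Ptbp1_shRNA over Scrambled_shRNA in blue. Overexpression intervals lie between -0.31 and 0.35, and that of Pfkl alone stays above 0. Silencing intervals all include 0 and reach from -1.03 to 1.66.

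Next, the responses were compared directly, as the silencing fold change minus the overexpression fold change in a fit over all 18 libraries. That fit took 1 spread per gene for both experiments. Fitted apart, the biological coefficient of variation was 90.1% in silencing and 22.3% in overexpression, so the shared spread may be too small for silencing. With edgeR, 0 of the 10 members differed at an adjusted p under 0.05, where 0.225% of the 17779 genes tested did, and 0 at an unadjusted p under 0.05, against 14.6%. With limma, 0 were called. The smallest adjusted p was 0.470, for Pkm, whose difference of fold changes was 0.68 on the log2 scale (95% interval -0.17 to 1.54).

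The balance between isozymes was compared within each library, with counts divided by the length of the longest coding transcript so that depth cancels. Pfkm made up 38.6%, 36.9%, 38.8%, 39.8% and 38.4% of the 3 phosphofructokinases in PTBP1 OE, and 40.2%, 42.1%, 41.3% and 40.8% in control OE. Every PTBP1 OE library lay below every control OE library. The mean Pfkm share was 38.5% ± 1.07 in PTBP1 OE and 41.1% ± 0.813 in control OE (SD, n = 5 and 4), a difference of -2.60 percentage points (exact two-sided permutation p = 0.0159, adjusted p = 0.0476 over the 9 tests of shares).

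Of the other phosphofructokinases, Pfkl made up 24.4% ± 1.82 in PTBP1 OE and 21.5% ± 1.50 in control OE, a difference of 2.87 points that did not pass after adjustment (exact permutation p = 0.0476, adjusted p = 0.107), while Pfkp was at 37.1% ± 1.12 and 37.4% ± 0.865 (exact permutation p = 0.667, adjusted p = 0.746). The 3 shares of a library add to the whole, so they are not independent. Beside them, summed astrocyte markers (12 genes, all tested, 0 of them at 0 in every library) were at 397 to 839 CPM in PTBP1 OE and at 588 to 859 CPM in control OE, with 7 markers higher and 5 lower in PTBP1 OE. Summed excitatory neuron markers were at 1932 to 2741 CPM in PTBP1 OE and at 2356 to 2907 CPM in control OE, and their part in the result was not tested.

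In silencing the enolase balance differed. Eno1 made up 65.9%, 61.5%, 56.9% and 64.9% of Eno1 and Eno2 in Ptbp1_shRNA, and 66.5%, 66.1%, 70.6%, 73.2% and 79.2% in Scrambled_shRNA. The groups did not overlap, though the highest Ptbp1_shRNA library and the lowest Scrambled_shRNA library were 65.9% and 66.1%. The mean Eno1 share was 62.3% ± 4.06 in Ptbp1_shRNA and 71.1% ± 5.38 in Scrambled_shRNA (SD, n = 4 and 5), a difference of -8.80 percentage points (exact two-sided permutation p = 0.0159, adjusted p = 0.0476). Without the least evenly covered library of each group the difference was -6.51 points with p = 0.0571, the smallest that an exact permutation test of 3 against 4 libraries allows. Summed astrocyte markers were at 419 to 986 CPM in Ptbp1_shRNA and at 880 to 1378 CPM in Scrambled_shRNA, with 4 of the 10 markers tested higher and 6 lower, and 0 of the 12 at 0 in every library. Slc1a2, the glutamate transporter that made up most of that sum, averaged 554 ± 211 CPM in Ptbp1_shRNA and 850 ± 156 CPM in Scrambled_shRNA, while Aqp4, the astrocyte water channel, averaged 8.10 ± 9.21 and 7.01 ± 5.46 CPM. Summed excitatory neuron markers were at 1351 to 2597 CPM in Ptbp1_shRNA and at 2573 to 4427 CPM in Scrambled_shRNA, with 3 of 6 higher and 3 lower. Of the 4 layer II markers 0 were higher and 4 lower in Ptbp1_shRNA, and of the 5 oligodendrocyte markers tested 0 were higher and 5 lower. The part of these markers in the enolase result was not tested.

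In overexpression the Eno1 share was 64.5% ± 1.22 in PTBP1 OE and 64.8% ± 1.12 in control OE (exact permutation p = 0.730, adjusted p = 0.746). Whether the Eno1 shares moved differently in both experiments was not tested. The phosphofructokinase shares in silencing spread widely. Pfkm was at 31.7% ± 10.5 in Ptbp1_shRNA and 24.9% ± 11.4 in Scrambled_shRNA, Pfkl at 6.17% ± 3.10 and 5.63% ± 1.38, and Pfkp at 62.1% ± 12.4 and 69.5% ± 12.2 (exact permutation p = 0.397, 0.746 and 0.413, with the same order of genes).

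**Figure D5:**
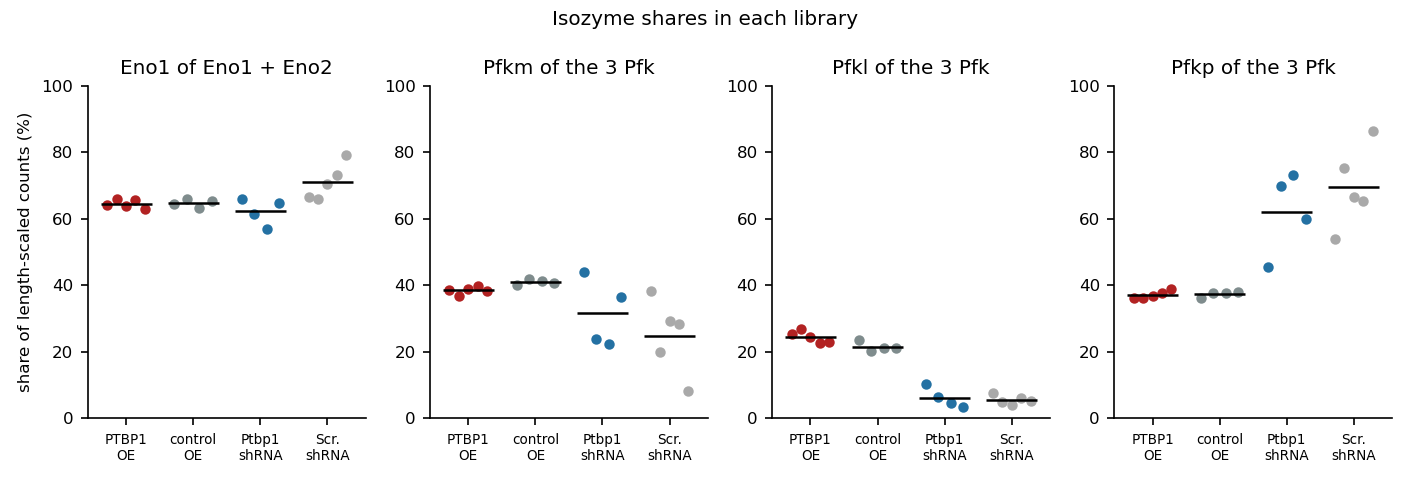
Share of length-scaled counts (%, vertical axis from 0 to 100) of Eno1 among both enolases and of each phosphofructokinase among the 3, with 1 point per library and lines at the group means. The Pfkm share of PTBP1 OE lies below that of control OE (means 38.5% and 41.1%), and the Eno1 share of Ptbp1_shRNA lies below that of Scrambled_shRNA (means 62.3% and 71.1%).

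The order of levels among the enzymes was compared per kilobase of transcript on 1 scaling over all 18 libraries. Gapdh led every group, at 2170 ± 164 CPM per kilobase in PTBP1 OE, 2257 ± 272 in control OE, 1022 ± 235 in Ptbp1_shRNA and 1142 ± 179 in Scrambled_shRNA (SD, n = 5, 4, 4 and 5). Aldoa came next in every group, at 971 ± 62.7, 979 ± 36.9, 301 ± 52.8 and 366 ± 55.4 in that order. In PTBP1 OE there followed Eno1 at 389 ± 21.8, Pkm at 283 ± 20.8, Pgk1 at 219 ± 17.995 and Eno2 at 214 ± 12.5 CPM per kilobase. Pgk1 and Eno2 did not differ beyond their spread, and the enzymes above them each stood clear of the next. Pfkm at 45.4 ± 4.11, Pfkp at 43.8 ± 3.92 and Hk1 at 39.5 ± 2.88 lay within or close to each other's spread, and Pfkl was lowest at 28.7 ± 1.24. Control OE had the same order.

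In silencing the order changed in places. Counts there were gathered at the 3′ end of Pkm, and division by whole transcript length does not allow for uneven coverage. Pgk1 at 169 ± 60.8 and Eno1 at 146 ± 43.2 CPM per kilobase stood next to each other in Ptbp1_shRNA, as did Eno1 at 193 ± 29.1 and Pgk1 at 171 ± 51.0 in Scrambled_shRNA, and neither pair differed beyond its spread. Pkm was at 91.4 ± 27.9 in Ptbp1_shRNA and 57.2 ± 28.9 in Scrambled_shRNA, and Eno2 at 89.4 ± 29.4 and 81.0 ± 28.8. Pfkp stood first among the phosphofructokinases, at 32.8 ± 6.63 in Ptbp1_shRNA and 30.9 ± 4.80 in Scrambled_shRNA. Hk1 was at 16.8 ± 9.53 in Ptbp1_shRNA and 11.6 ± 4.04 in Scrambled_shRNA, and Pfkm at 16.7 ± 5.46 and 11.97 ± 6.95, so these did not differ from each other beyond their spread. Pfkl was lowest again, at 3.25 ± 1.61 and 2.63 ± 1.13. Levels were lower in silencing than in overexpression for all 10 enzymes in both pairs of groups, but experiment and vector cannot be told apart, and these levels were not tested against each other.

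The neighbouring steps of sugar metabolism were followed in a list of 69 genes. Of these, 60 were tested in overexpression and 0 were called by edgeR, DESeq2 or limma. At an unadjusted p under 0.05, 3 of the 60 passed with edgeR, 2 of them higher in PTBP1 OE, where 4.78% of all genes passed, so the share was near that of all genes. In all, 33 of the 60 had a fold change above 0 and 27 below, with a median of 0.02, against 0.00 over all genes tested. Among the other glycolytic enzymes 13 were above 0 and 2 below, and among genes for the fate of pyruvate and lactate 5 were above and 15 below. Eno4, an enolase known from sperm, averaged 3.51 ± 0.747 CPM in PTBP1 OE and 2.38 ± 0.573 CPM in control OE (log2 fold change 0.56, edgeR unadjusted p = 0.0467, adjusted p = 0.974). Pgd, of the pentose phosphate pathway, averaged 27.0 ± 1.50 CPM in PTBP1 OE and 20.5 ± 6.31 CPM in control OE, and Phgdh, which opens serine synthesis, 1.61 ± 0.567 and 2.74 ± 0.378 CPM. Their log2 fold changes of 0.40 and -0.76 had unadjusted p of 0.0441 and 0.0286 with edgeR, and neither passed over all genes.

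The abundant partners of the 10 enzymes had small fold changes in overexpression. Gpi1, the glucose-6-phosphate isomerase, averaged 493 ± 31.4 CPM in PTBP1 OE and 491 ± 15.5 CPM in control OE. Tpi1, the triosephosphate isomerase, averaged 522 ± 43.2 CPM in PTBP1 OE and 511 ± 61.0 in control OE, and Pgam1, the phosphoglycerate mutase, 1142 ± 106 and 1217 ± 130 CPM. Ldha and Ldhb, the subunits of lactate dehydrogenase, had log2 fold changes of -0.05 and -0.05, and Slc2a3 and Slc2a1, the glucose transporters GLUT3 and GLUT1, of -0.02 and 0.27. Aldoc, the aldolase known as an astrocyte marker, had one of 0.22 (95% interval -0.28 to 0.72). None of these passed, with edgeR adjusted p of 0.974 to 0.999.

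In silencing 53 of the 69 listed genes were tested and 0 were called by edgeR, while 10 had an unadjusted p under 0.05, where 11.2% of all genes did, 3 higher and 7 lower in Ptbp1_shRNA. DESeq2 called 5 of the 66 listed genes it tested, beside 705 of the 21830 genes in all, and limma 0. Of the 53, 29 had a fold change above 0 and 24 below, with a median of 0.06, against 0.03 over all genes tested. Among the other glycolytic enzymes 6 were above 0 and 8 below, and among genes for the fate of pyruvate and lactate 11 were above and 7 below. Ldha averaged 141 ± 58.3 CPM in Ptbp1_shRNA and 276 ± 67.6 CPM in Scrambled_shRNA, a log2 fold change of -0.96 (95% interval -1.63 to -0.30, edgeR adjusted p = 0.254), and Ldhb 187 ± 58.4 and 198 ± 54.6 CPM. Pdk2, a kinase that inhibits pyruvate dehydrogenase, averaged 50.5 ± 13.1 CPM in Ptbp1_shRNA and 112 ± 20.8 CPM in Scrambled_shRNA (log2 fold change -1.15, adjusted p = 0.150). Gpd2, the mitochondrial glycerol-3-phosphate dehydrogenase, averaged 78.0 ± 17.5 CPM in Ptbp1_shRNA and 168 ± 50.2 CPM in Scrambled_shRNA (log2 fold change -1.11, adjusted p = 0.168).

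The lactate transporters had opposite signs. Slc16a7, the transporter MCT2 known from neurons, averaged 51.1 ± 22.1 CPM in Ptbp1_shRNA and 146 ± 63.5 CPM in Scrambled_shRNA, with a log2 fold change of -1.51 (edgeR adjusted p = 0.189). Slc16a1, the transporter MCT1, averaged 22.9 ± 14.6 CPM in Ptbp1_shRNA and 5.36 ± 4.03 CPM in Scrambled_shRNA, with a log2 fold change of 2.09 (edgeR adjusted p = 0.313). Slc2a1 had a log2 fold change of 1.70, Slc2a13, a myo-inositol transporter, one of -0.74, and Pdha1, a pyruvate dehydrogenase subunit, one of -0.58 (adjusted p = 0.442, 0.261 and 0.335 in this order). None of the named genes passed over all genes with edgeR.

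Finally, genes were ranked by how closely their log2 CPM followed Pkm over the 9 overexpression libraries, after each group's mean was subtracted. The ranking covered the 5368 genes averaging 5 or more in log2 CPM. The nearest were Nrip3 (Pearson r 0.99), Prdm8 (0.97), Scrt1 (0.96), Cplx1 (0.94) and Gm20683 (0.93). Over the 9 silencing libraries, after the same subtraction, these genes had r of -0.45, 0.06, 0.01, 0.60 and -0.02 with Pkm, in that order. Among the members, Eno1 followed Pkm most closely in overexpression, with r 0.70, and Pgk1 least, with r 0.16. In silencing Pfkl had the highest r with Pkm, 0.79, and Pfkp the lowest, 0.04. These values describe differences between libraries within groups, which also differ in depth and coverage, and no test was made of them.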

How the data were processed

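Mice were injected with Ptbp1 or control vectors, and 1 TRAP RNA library per mouse was sequenced. The authors deposited whole-number counts per gene and per exon bin, not normalized. Alignment or counting involved STAR 2.5.3a and HTSeq on mm10, per the submitters' processing notes, which are held here without the role of each tool. No source used here gives the annotation release, the strand setting or the treatment of reads matching several places, so a gene and an antisense partner may not be told apart.

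Groups follow the treatment labels. The members, gene lists and tests were chosen with earlier results of these data known. Each experiment was fitted on the whole table with edgeR 4.0.16 in R 4.3.3 (filterByExpr, TMM, robust quasi-likelihood test, Benjamini-Hochberg adjustment, called under 0.05), with DESeq2 1.42.0 and limma 3.58.1 as alternatives. Exon bins were tested with diffSpliceDGE. Its usage differences are printed on the log2 scale. Shares were compared with exact two-sided permutation tests (scipy 1.17.1). P-values compare the difference between groups with the spread between mice. Totals in the 5 closing lines of each exon file were left out. The edgeR fits of genes and of exon bins within each experiment were run on simulated data, and the other steps were not.

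The files hold 12 Pkm bins, which were taken in order as the 12 exons of 2 Pkm transcripts kept from GENCODE release M 21. Transcripts with Ensembl numbers above a cutoff set here were left out for all members, and the assignment of bins rests on that choice. Bins rebuilt from the kept transcripts of each member equalled the deposited bins in number for 5 members (Hk1, Pfkl, Pgk1, Eno1 and Eno2). Only the number of bins per gene was compared, not the position of each bin. For Pkm the rebuild gave 14 bins against 12 deposited, so the positions of its M1 and M2 bins rest on the assignment in order. No position is given for bins of the other members. Gene coordinates are from the same release. CPM are on TMM scales, within each experiment unless stated. Levels between genes and isozyme shares use the length of the longest coding transcript among those kept. Named genes are all members and Ptbp1, then 8 fixed genes of the pathway list (Aldoc, Gpi1, Tpi1, Pgam1, Ldha, Ldhb, Slc2a1 and Slc2a3), and up to 6 others per experiment with the smallest unadjusted p under 0.05.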

Additional observations from a re-analysis of the deposited data

Results flagged for a closer look

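Pgk1 in replicate 1 of Scrambled_shRNA was at 397 CPM, far from the other four libraries of that group at 217 to 240 CPM. It stood out because its gap to the nearest library was 0.875 of the group's whole range. The 4 Ptbp1_shRNA libraries ran from 143 to 351 CPM. Of 58 groups of values examined in this way, 1 stood out, and chance marks about 1 in 20 groups.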

How the results depend on the processing

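The higher M2 share and M2 bin usage in PTBP1 OE held under every alternative run for them, with the share judged by its unadjusted p. Leaving out each library in turn, the share difference ran from 1.42 to 1.65 percentage points. Its exact permutation p, not adjusted, was 0.0286 to 0.0357, each the smallest that the remaining libraries allow. The log2 relative usage of the M2 bin ran from 1.74 to 2.15 (diffSpliceDGE adjusted p 4.7e-05 to 0.00749). With limma diffSplice it was called too. The count of called members stayed at 0 of 10 in both experiments under all alternatives, including each library left out. No paired analysis was possible because the groups compared hold different mice and the labels name no pairing between them.

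The difference in the Eno1 share in silencing ran from -10.1 to -6.78 points with each library left out, and was -6.51 without the least evenly covered library of each group, a choice made after seeing the data (exact permutation p = 0.0571, the smallest possible with 3 against 4). The Pfkm share difference in overexpression ran from -2.93 to -2.19 points. That of the Pfkl share ran from 2.23 to 3.60 points, with exact permutation p from 0.0357 to 0.107, above 0.05 in 8 of the 9. The Eno1 share difference in overexpression ran from -0.73 to 0.12 points and the Pfkl share difference in silencing from -0.89 to 1.50. The cause was not tested.

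Over all genes, DESeq2 called 705 in silencing and 39 in overexpression, limma 69 and 8, fits without the low-count filter 11 and 8, and 1 fit over all 18 libraries 1775 and 0, against 0 and 7 with edgeR within each experiment. In silencing, DESeq2 called 5 of the 66 pathway genes it tested, all 5 lower in Ptbp1_shRNA, beside 705 of 21830 genes. The fit over all 18 libraries called 14 of the 69 listed genes in silencing, beside 1775 of the 17779 genes it tested. The difference of the responses called 0 or 1 pathway gene as libraries were left out. Without TMM factors the median log2 fold change of all genes in silencing was 0.17, against 0.03 with them.

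Some uncalled members changed sign. In silencing without TMM factors, Pgk1 was at 0.15 on the log2 scale. Without the 2 least evenly covered libraries, Pfkp was at -0.0050, Eno2 at -0.18 and the relative usage of the M1 bin at -0.025. In overexpression without TMM factors, Pkm was at 0.00427, Pfkp at 0.00431 and Eno2 at 0.00428, and the difference of the responses of Gapdh was 0.029. With libraries left out in silencing, Pfkl ran from -0.061 to 0.58, Pgk1 from -0.19 to 0.19, Eno2 from -0.039 to 0.34, and the M1 bin from -0.16 to 0.50. In overexpression, Pkm ran from -0.043 to 0.027, Hk1 from -0.11 to 0.12, Pfkp from -0.092 to 0.027, Aldoa from -0.057 to 0.0028, Gapdh from -0.12 to 0.012 and Eno2 from -0.059 to 0.035. The difference of the responses ran from -0.25 to 0.39 for Pfkl, -0.19 to 0.050 for Gapdh, -0.14 to 0.25 for Pgk1 and -0.035 to 0.34 for Eno2.

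Levels per kilobase over the 18 libraries moved by more than 1 SD without TMM factors for these genes. In PTBP1 OE and control OE they became 339 and 338 for Pkm, 54.4 and 57.4 for Pfkm, 34.3 and 30.0 for Pfkl, 52.4 and 52.3 for Pfkp, 1162 and 1165 for Aldoa, 2597 and 2676 for Gapdh, 262 and 271 for Pgk1, 465 and 469 for Eno1, and 256 and 255 for Eno2. Hk1 became 47.2 in PTBP1 OE. In Scrambled_shRNA, Pfkp became 24.8, Aldoa 292, Gapdh 913 and Eno1 155.

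Few Pkm counts at these exons limit M2 in silencing, where 56 to 561 M1 and M2 counts per library leave shares under 0.535% to 5.36% unseen by counting error alone, and uneven coverage limits every exon result there.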
